A study of Mus musculus with 11 samples.

Results

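Lysosomal proteases and their companions were followed in the pancreas and the epididymal adipose tissue of mice with obesity-related alcohol-induced acute pancreatitis (OA-AP). The 10 genes encode 6 cysteine cathepsins (Ctsb, Ctsl, Ctsc, Ctsz, Ctss and Ctsk), the aspartic protease cathepsin D (Ctsd), the cathepsin inhibitor cystatin C (Cst3) and the lysosomal membrane proteins Lamp1 and Lamp2. They were found by gene symbol, were present in both count tables (10 of 54532 genes in the pancreas table and 10 of 46078 in the adipose table), and all 10 passed the filter on low counts in both tissues. The bulk RNA libraries came from 5 pancreata (2 control, 3 OA-AP) and 6 adipose samples (3 of each) of wild-type male mice aged 16 weeks, given as C57BL/6 in the labels and as C57BL/6J in the study's methods. OA-AP mice, labelled Model, had eaten a high-fat diet (60 kcal% fat) for 12 weeks and were given ethanol intraperitoneally, 2 injections of 2 g/kg spaced 1 h apart. Control mice had eaten a diet with 10 kcal% fat and were injected with saline. Tissue was taken 12 h after the first injection, and since diet and ethanol differ together, their parts in any difference below cannot be told apart.

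Lysosomes are acid compartments in which cells break down proteins, lipids and sugars. Cathepsins are their main proteases, cystatins bind and block the cysteine cathepsins, and the heavily glycosylated LAMP proteins line the membrane, Lamp2 also taking part in the fusion of autophagosomes with lysosomes. In pancreatic acinar cells cathepsin B is known for cleaving trypsinogen to active trypsin, cathepsin L for cleaving it to an inactive form, and cathepsin D for activating cathepsin B, so the balance among them is a long-standing theme of acute pancreatitis research. Many lysosomal genes are driven by the transcription factor TFEB and its relatives, which bind elements built around the hexamer CACGTG.

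RefSeq promoter windows on GRCm38.p6, each running from 250 bases before to 50 bases after a start site, were matched for 9 of the 10 genes. The hexamer CACGTG, which reads the same on both strands, was found in the windows of 3 of these 9 genes and in 7.15% of all 32851 windows. The longer palindrome TCACGTGA, which contains the hexamer, was in 1 of the 9 and in 0.974% of all windows. The 3 windows with the hexamer are shown 5′ to 3′ on the strand of the gene, with CACGTG in capitals. Lamp1 is on the plus strand at chr8:13158911-13159210, Ctsd on the minus strand at chr7:142387778-142388077 and Ctsl on the minus strand at chr13:64370471-64370770.
Lamp1: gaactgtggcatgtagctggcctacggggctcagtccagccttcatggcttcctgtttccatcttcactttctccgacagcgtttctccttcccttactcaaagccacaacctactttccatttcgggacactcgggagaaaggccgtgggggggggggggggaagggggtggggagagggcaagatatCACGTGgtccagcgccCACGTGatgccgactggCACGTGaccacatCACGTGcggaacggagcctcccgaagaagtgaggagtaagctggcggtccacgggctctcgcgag
Ctsd: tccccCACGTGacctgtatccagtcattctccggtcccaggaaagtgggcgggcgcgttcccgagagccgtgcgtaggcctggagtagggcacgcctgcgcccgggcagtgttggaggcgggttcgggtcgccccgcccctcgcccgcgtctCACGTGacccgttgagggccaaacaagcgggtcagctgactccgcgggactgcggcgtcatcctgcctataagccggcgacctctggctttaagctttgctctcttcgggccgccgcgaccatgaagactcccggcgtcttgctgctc
Ctsl: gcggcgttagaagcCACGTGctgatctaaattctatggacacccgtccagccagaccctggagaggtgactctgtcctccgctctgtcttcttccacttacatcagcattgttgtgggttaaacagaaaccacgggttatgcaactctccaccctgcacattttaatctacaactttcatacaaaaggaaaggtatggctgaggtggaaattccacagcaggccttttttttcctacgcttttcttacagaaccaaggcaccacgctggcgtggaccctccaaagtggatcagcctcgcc
Lamp1 held 4 copies, beginning 61, 45, 28 and 15 bases before its start site, while Ctsd held 2 and Ctsl 1. The RefSeq start sites used lie 211 bases (Ctsd) and 370 bases (Ctsl) inside the gene bounds of the count table, and at its 5′ boundary for Lamp1. These matches describe letters in a window and were not tested for binding.

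In the pancreas 1 of the 10 genes was upregulated in OA-AP, Ctsl, and 3 were downregulated, Cst3, Ctsc and Lamp1. A gene was called where its edgeR adjusted p-value was under 0.05 and its fold change at least 1.5, and by this rule 16.2% of the 12884 genes tested were upregulated and 13.5% downregulated. The median log2 fold change of the 10 genes was 0.21, beside 0.04 over all genes tested. Levels are given as CPM, each library's counts brought to a common total and scaled with TMM factors within each tissue, means with SD. Relative to the library totals, the TMM factors raised the CPM of the 2 control libraries (factors of 0.793 and 0.698) and lowered those of the 3 OA-AP libraries (1.32, 1.23 and 1.11). With library totals alone the median of all genes in the pancreas moved from 0.04 to 0.75, so pancreatic changes below hold relative to the typical gene.

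Ctsl (cathepsin L, chr13:64359337-64370890, minus strand) stood at 199.9 and 207 CPM in the control pancreata and at 532, 454 and 793 CPM in OA-AP. All 3 OA-AP libraries lay above both controls. The rise from 203 ± 4.77 (n = 2) to 593 ± 178 CPM (n = 3) was 2.92-fold, a log2 fold change of 1.55 (SE 0.24, edgeR adjusted p = 0.00286), and it stayed between 1.23 and 1.70 when any 1 library was left out.

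Cst3 (cystatin C, chr2:148871722-148875692, minus strand), a secreted inhibitor of cysteine cathepsins, stood at 283 and 316 CPM in controls and at 141, 145 and 126 CPM in OA-AP. The groups did not overlap, and the log2 fold change was -1.12 (SE 0.13, edgeR adjusted p = 0.000717), a 2.18-fold decrease. Ctsc (chr7:88278085-88310888, plus strand), which encodes cathepsin C, a dipeptidyl peptidase that activates the granule proteases of immune cells, stood at 21.4 and 20.1 CPM in controls and at 11.6, 10.8 and 8.89 CPM in OA-AP. It fell 1.99-fold (log2 fold change -0.99, SE 0.16, edgeR adjusted p = 0.00308), again with no overlap. With library totals alone Cst3 was at -0.40 (edgeR adjusted p = 0.0486), short of the 1.5-fold threshold, and Ctsc at -0.28 (edgeR adjusted p = 0.318).

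The 2 membrane proteins differed in opposite directions. Lamp1 (chr8:13159161-13175338, plus strand) held 129.8 and 130.3 CPM in controls and 79.3, 81.9 and 81.7 CPM in OA-AP, with the smallest SD relative to the mean of the 10 genes in both groups. Its log2 fold change was -0.68 (SE 0.12, edgeR adjusted p = 0.00350). With library totals alone the Lamp1 value was 0.027 and no longer negative, and without control replicate 2 it was -0.68 with an edgeR adjusted p of 0.0537. Lamp2 (chrX:38401357-38456454, minus strand) held 46.9 and 51.2 CPM in controls and 74.9, 67.4 and 68.5 CPM in OA-AP. All OA-AP libraries were higher, at an edgeR adjusted p of 0.0172, but the 1.43-fold difference (log2 0.52, SE 0.13) was under the fold threshold.

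The other 5 pancreatic genes were not called. Ctsb (cathepsin B, chr14:63122462-63145923, plus strand) held 83.1 and 76.6 CPM in controls and 95.6, 80.2 and 160.1 CPM in OA-AP, so the groups overlapped (log2 0.49, SE 0.29, edgeR adjusted p = 0.227). Ctsd (chr7:142375911-142388038, minus strand) held 83.8 and 89.1 CPM in controls and 90.4, 84.0 and 128.8 CPM in OA-AP, also with overlap (log2 0.23, SE 0.19, edgeR adjusted p = 0.400). OA-AP replicate 3 was the highest pancreatic library for both, and without it their log2 fold changes were 0.091 and -0.035. The same library held 40.7 CPM of the neutrophil gene S100a9, against 4.10 and 1.09 CPM in the other OA-AP pancreata and at most 0.399 CPM in controls. The 12 neutrophil markers together ranged from 1.29 to 1.99 CPM in control and from 3.60 to 104 CPM in OA-AP pancreata. Of these 12 markers 8 were highest in OA-AP replicate 3, while Mpo, Elane, Camp and Ltf were highest in OA-AP replicate 1. Of 7 neutrophil markers tested 0 were called by edgeR and 1 was higher at an unadjusted p-value under 0.05, and their part in the cathepsin values was not tested.

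Ctsz (cathepsin Z, a carboxypeptidase, chr2:174427493-174439039, minus strand) was at 19.2 and 18.1 CPM in control and at 25.8, 22.4 and 30.5 CPM in OA-AP pancreata, without overlap but with an edgeR adjusted p of 0.0551 (log2 0.49, SE 0.17). It was called without OA-AP replicate 2 (log2 0.59, edgeR adjusted p = 0.0275). Ctss (chr3:95526786-95556403, plus strand), a protease of antigen-presenting cells, was at 4.81 and 3.69 CPM in controls and at 4.10, 4.18 and 6.28 CPM in OA-AP. Ctsk (chr3:95499256-95509362, plus strand), best known as the collagenase of osteoclasts, was the scarcest with 9 to 26 counts a library, or 0.84 to 1.36 CPM. Their log2 fold changes were 0.19 (SE 0.29) and 0.12 (SE 0.45), and the groups overlapped for both. Of 10 macrophage markers tested in the pancreas 0 were upregulated by edgeR (3 were higher at an unadjusted p-value under 0.05) and 1, Csf1r, was downregulated, and the summed level of the 12 on the list ranged from 35.4 to 63.3 CPM in controls and from 54.1 to 58.6 CPM in OA-AP.

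Counting genes whose groups did not overlap, 3 of the 10 lay higher in every OA-AP pancreas (Ctsl, Lamp2 and Ctsz), where 32.9% of all genes tested did, and 3 lay lower (Cst3, Ctsc and Lamp1), where 29.4% did. Pancreatic acinar marker genes took 49.8% and 51.0% of the counts in controls and 38.9% to 41.2% in OA-AP. In bulk tissue, fewer cells of a type and less RNA per cell cannot be told apart.

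**Figure D1:**
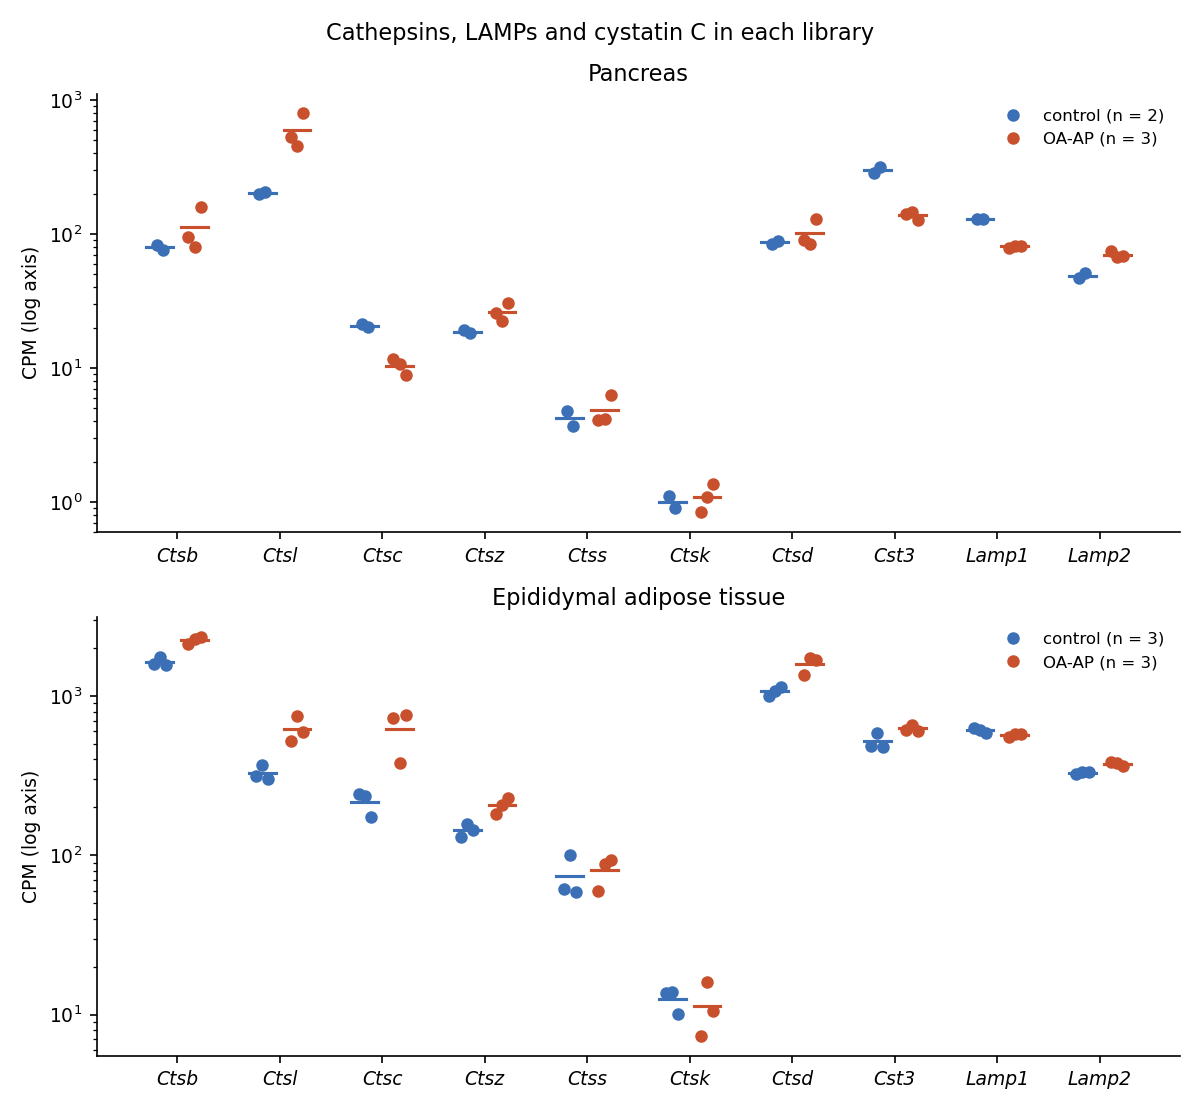
Level of each gene in every library, in CPM on a log axis, for pancreas (top) and epididymal adipose tissue (bottom). Points are libraries and horizontal lines group means. Of the genes called, Ctsl lay higher and Cst3, Ctsc and Lamp1 lower in all OA-AP pancreata, and Ctsl and Ctsc lay higher in all OA-AP adipose libraries. Some genes that were not called also lay apart without overlap.

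In adipose tissue 2 of the 10 genes were upregulated, Ctsc and Ctsl, and 0 were downregulated. Of the 15839 genes tested there, 12.1% were upregulated and 13% downregulated. DESeq2 gave the same counts for the 10 genes, and 0 of them were lower even at an unadjusted edgeR p-value under 0.05. The median log2 fold change of the 10 genes was 0.36, beside -0.01 over all genes tested. By groups that did not overlap, 7 of the 10 lay higher in every OA-AP library (26.4% of all genes tested) and 1, Lamp1, lay lower (26% of all genes tested).

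Ctsc stood at 244, 235 and 174 CPM in control adipose tissue and at 723, 382 and 759 CPM in OA-AP. Every OA-AP library exceeded every control, by 2.85-fold on average (log2 1.51, SE 0.28, edgeR adjusted p = 0.00711). Ctsl stood at 317, 369 and 303 CPM in controls and at 519, 752 and 593 CPM in OA-AP, a 1.88-fold rise (log2 0.91, SE 0.17, edgeR adjusted p = 0.00629) with no overlap. Over the libraries left out in turn, the log2 fold change ranged from 1.35 to 1.77 for Ctsc and from 0.76 to 1.04 for Ctsl, and both stayed called.

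Marker genes of several cell types differed in the same tissue. Of the 10 adipocyte markers 1 was upregulated and 3 downregulated. Their sum ranged from 65359 to 70630 CPM in controls and from 49643 to 63053.5 CPM in OA-AP. The 12 neutrophil markers summed to 10.1 to 16.3 CPM in control and 180.3 to 199 CPM in OA-AP adipose tissue, with 6 of 7 tested upregulated and 1, Elane, downregulated. Of the 12 macrophage markers 4 were upregulated (Mrc1, Itgam, Cd163 and Fcgr1) and 1, Csf1r, downregulated, and their sum ranged from 875 to 1208 CPM in controls and from 893 to 1445 CPM in OA-AP. Of the 8 lymphocyte markers tested 7, and of the 7 fibroblast markers 5, were downregulated. The lymphocyte markers summed to 13.3 to 53.5 CPM in controls and 4.20 to 6.72 CPM in OA-AP, and the fibroblast markers to 3289 to 4170 and 1946 to 2422 CPM. Control replicate 2 was the highest library for 9 of 9 lymphocyte and 7 of 12 macrophage markers. The part of these cell types in the levels of Ctsc, Ctsl and the other cathepsins was not tested.

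Ctsb, Ctsd and Ctsz were higher in adipose tissue of OA-AP mice at edgeR adjusted p-values of 0.0317, 0.0219 and 0.0178, each by less than 1.5-fold. Ctsb, the most abundant of the 10 genes in CPM, held 1589.8, 1766 and 1575 CPM in controls and 2122, 2285 and 2353 CPM in OA-AP (log2 0.46, SE 0.13). Ctsd held 1008, 1079 and 1148 CPM in controls and 1363, 1743 and 1681 CPM in OA-AP (log2 0.57, SE 0.15). Ctsz held 131, 158 and 145 CPM in controls and 182, 206 and 229 CPM in OA-AP (log2 0.51, SE 0.12). All 3 genes were higher in 3 of 3 OA-AP libraries, and without OA-AP replicate 1 Ctsd and Ctsz passed the fold threshold, giving 4 called genes. Without control replicate 1 or 3 or OA-AP replicate 3, however, none of the 3 kept an edgeR adjusted p-value under 0.05, nor did Ctsb and Ctsd without control replicate 2, with values of 0.0540 to 0.0955 for Ctsb, 0.0526 to 0.0722 for Ctsd and 0.0589 to 0.0615 for Ctsz. Scaling by library totals alone gave edgeR adjusted p-values of 0.105 for Ctsb, 0.0653 for Ctsd and 0.0616 for Ctsz.

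Cst3 was at 488, 586 and 482 CPM in control and at 614, 663 and 606 CPM in OA-AP adipose tissue (log2 0.27, SE 0.13, edgeR adjusted p = 0.128). Lamp1 was at 631, 616 and 588 CPM in controls and at 556, 577 and 576 CPM in OA-AP (log2 -0.10, SE 0.11, edgeR adjusted p = 0.474). Lamp2 was at 324, 336 and 332 CPM in controls and at 385, 378 and 362 CPM in OA-AP (log2 0.18, SE 0.10, edgeR adjusted p = 0.175). These 3 genes showed no overlap between groups but differences too small to pass the test. Ctss (58.6 to 100.4 CPM in controls, 59.97 to 93.9 CPM in OA-AP) and Ctsk (10.1 to 13.8 and 7.36 to 16.0 CPM) overlapped, with edgeR adjusted p-values of 0.713 and 0.704. Control replicate 2, which held 0.605% of its counts in acinar genes against at most 0.00167% in the other 5 adipose libraries, gave the highest Ctss value, and without it the log2 fold change of Ctss was 0.43 (edgeR adjusted p = 0.163) in place of 0.13.

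**Figure D2:**
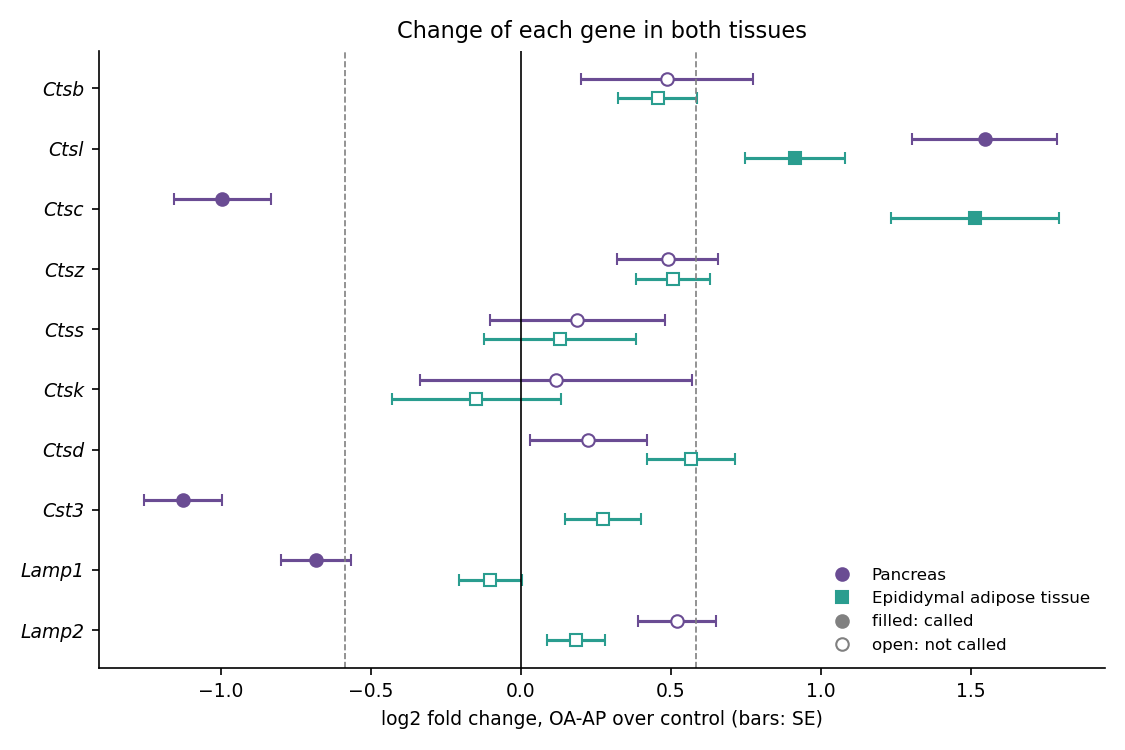
Log2 fold change of each gene, OA-AP over control, in pancreas (circles) and adipose tissue (squares), with bars of 1 SE. Dashed lines mark a 1.5-fold change and filled symbols genes called. Ctsc sits at -0.99 in pancreas and at 1.51 in adipose tissue.

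Whether a change differed between the tissues was tested with the tissue by condition term over all 11 libraries, for which 21.3% of 17046 genes had an edgeR adjusted p-value under 0.05. Of the 10 genes 3 passed, all with a lower change in the pancreas. Ctsc, down in pancreas and up in adipose tissue, differed by -2.49 on the log2 scale (SE 0.35, edgeR adjusted p = 0.000617). Cst3 differed by -1.39 (SE 0.18, edgeR adjusted p = 0.000418) and Lamp1 by -0.57 (SE 0.15, edgeR adjusted p = 0.0166). With library totals alone Ctsc was at -1.64 and still passed, Cst3 was at -0.53 (edgeR adjusted p = 0.0694), and Lamp1 turned to 0.27. The Lamp1 difference also lost its call (edgeR adjusted p of 0.0522 to 0.0664) without pancreas control replicate 1 or 2, adipose control replicate 2 or 3, or adipose OA-AP replicate 3. For Ctsl, upregulated in both tissues, the difference of 0.64 (SE 0.32) had an edgeR adjusted p of 0.191.

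**Figure D3:**
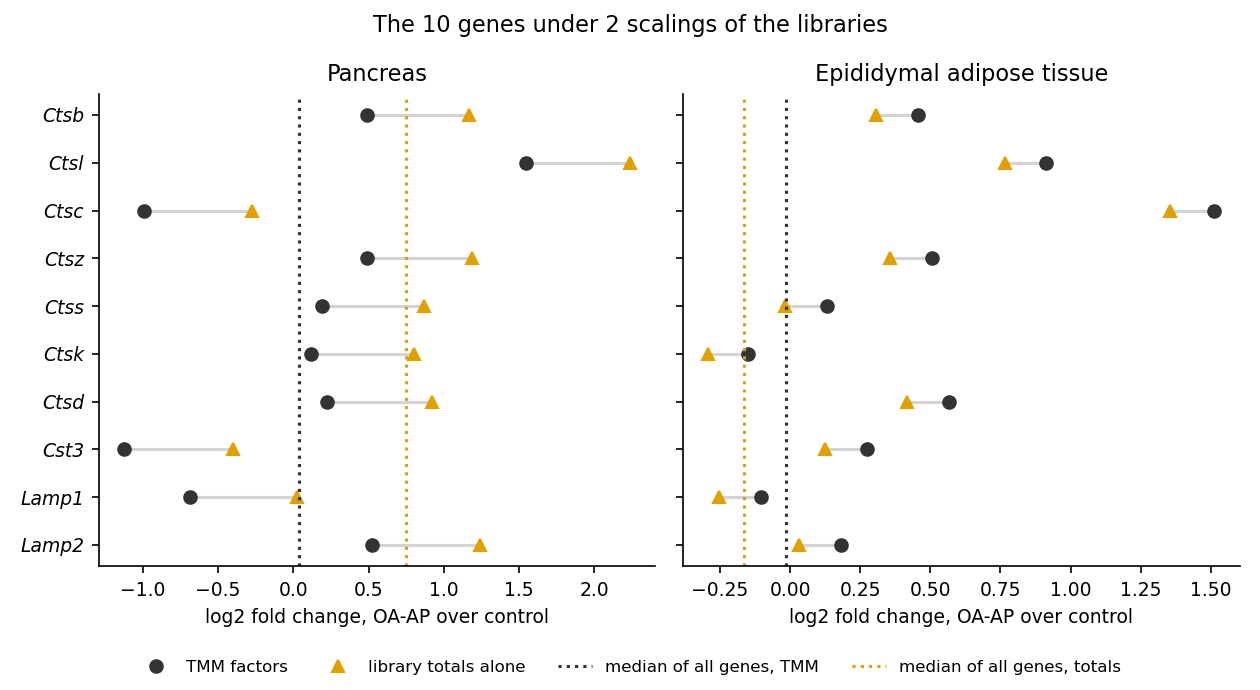
Log2 fold change of each gene with TMM factors (circles) and with library totals alone (triangles), in pancreas (left) and adipose tissue (right). Dotted lines are medians of all genes tested. In the pancreas every gene moves to the right together with the median, and Lamp1 goes from -0.68 to 0.027.

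Ratios of counts within a library do not depend on how libraries are scaled. An exact permutation test of 2 against 3 or 3 against 3 libraries cannot go below p = 0.1, and 10 such tests were made over the ratios and the summed level. Cst3 counts per count of the 6 cysteine cathepsins, the inhibitor against its targets, were 0.860 and 0.971 in the control pancreata and 0.210, 0.254 and 0.126 in OA-AP. The ratio thus went from 0.915 ± 0.0783 (n = 2) to 0.197 ± 0.0650 (n = 3), 4.84-fold lower, with no overlap (exact two-sided p = 0.1, adjusted 0.143). In adipose tissue it went from 0.214 ± 0.00741 to 0.166 ± 0.0142 (n = 3 each), 1.29-fold lower with no overlap at the same exact p = 0.1. The OA-AP pancreata and the adipose libraries all lay below 0.3, and the control pancreata above 0.8. Counts were not corrected for gene length (1266 bases for Cst3, 6489 for Ctsl and 6051 for Ctsb), so the levels of these ratios are not ratios of molecules.

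The ratio of Ctsb to Ctsl, the 2 proteases with opposite effects on trypsinogen, was 0.416 and 0.371 in control and 0.180, 0.177 and 0.202 in OA-AP pancreata, 2.12-fold lower without overlap (exact p = 0.1, adjusted 0.143). In adipose tissue it was 5.02, 4.79 and 5.19 in controls and 4.09, 3.04 and 3.97 in OA-AP, 1.36-fold lower without overlap (exact p = 0.1, adjusted 0.143). Ctsb to Ctsd overlapped in both tissues, at 0.926 ± 0.0946 and 1.09 ± 0.146 in control and OA-AP pancreata (exact p = 0.3, n = 2 and 3) and at 1.53 ± 0.139 and 1.42 ± 0.124 in adipose tissue (exact p = 0.4, n = 3 each). Lamp2 to Lamp1 was 0.361 and 0.393 in control and 0.944, 0.823 and 0.838 in OA-AP pancreata, 2.30-fold higher. In adipose tissue it was 0.514, 0.545 and 0.564 in controls and 0.692, 0.656 and 0.628 in OA-AP, 1.22-fold higher, with no overlap in either tissue (exact p = 0.1, adjusted 0.143).

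**Figure D4:**
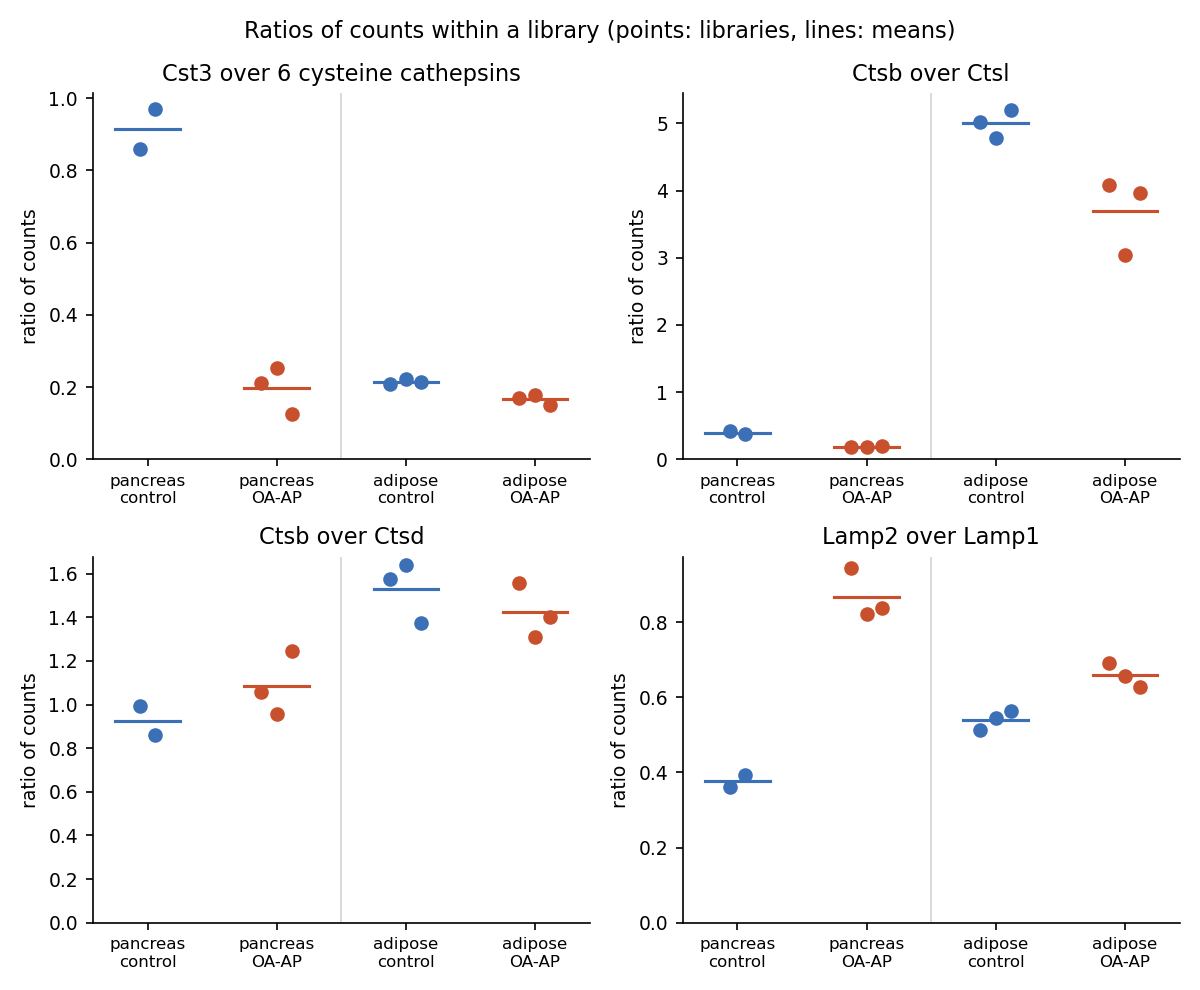
Ratios of counts within each library, on linear axes from 0, in control and OA-AP pancreas and adipose tissue. Points are libraries and lines group means. Cst3 over the 6 cysteine cathepsins goes from 0.915 to 0.197 in the pancreas, and Lamp2 over Lamp1 goes from 0.377 to 0.868.

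Summed over the 10 genes, the level was 893 ± 28.2 CPM (n = 2) in control and 1138 ± 238 CPM (n = 3) in OA-AP pancreata without overlap (exact permutation p = 0.2), and the log2 difference of 0.33 was 0.12 without OA-AP replicate 3 and -0.28 when CPM per kb of gene length were summed. In adipose tissue the sum was 4961 ± 259 CPM in control and 6961 ± 382 CPM in OA-AP (n = 3 each), without overlap (exact permutation p = 0.1, log2 0.49).

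Per kb of the deposited gene length, mean levels in the control pancreas ran from Cst3 (237 CPM per kb) through Lamp1 (48.6), Ctsd (36.8), Ctsl (31.3), Ctsb (13.2), Ctsz (12.97), Lamp2 (5.13), Ctsc (3.57) and Ctss (3.13) to Ctsk (0.666). Neighbours whose libraries overlapped in this order were Ctsb with Ctsz and Ctsc with Ctss. In the OA-AP pancreas Ctsl stood second at 91.4 CPM per kb, its libraries overlapping those of Cst3 at 109 CPM per kb. In control adipose tissue the order was Ctsd (459 CPM per kb), Cst3 (410.0), Ctsb (272), Lamp1 (229), Ctsz (100.4), Ctss (54.2), Ctsl (50.8), Ctsc (37.5), Lamp2 (34.6) and Ctsk (8.28). There Ctsd overlapped Cst3, Ctss overlapped Ctsl, and Ctsc overlapped Lamp2. In OA-AP adipose tissue Ctsd (679) and Cst3 (496) led without overlap, and Ctsc stood sixth at 107 CPM per kb, its libraries overlapping those of Ctsz and Ctsl. The order depends on the length used. Per kb of the longest principal transcript, Lamp2 stood above Ctsz in both pancreas groups with overlapping libraries, and Cst3 no longer overlapped Ctsl in the OA-AP pancreas. In control adipose tissue Cst3 stood above Ctsd without overlap. There Lamp2 moved from ninth to sixth (91.7 CPM per kb), overlapping Ctsz and Ctsc. In OA-AP adipose tissue Ctsc moved above Ctsz (249 CPM per kb), overlapping Ctsz and Lamp1, and Ctsd overlapped Cst3.

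Between the control tissues, 9 of the 10 genes differed in the fit of all 11 libraries. Of 17046 genes tested, 26% were called higher and 29.4% lower in the pancreas. Ctsl (2.42-fold) and Cst3 (2.27-fold) were higher in pancreas, while Ctsb (5.23-fold), Ctss (4.38-fold), Ctsd (3.18-fold), Ctsk (3.14-fold), Ctsc (2.67-fold), Ctsz (1.97-fold) and Lamp2 (1.72-fold) were higher in adipose tissue. The edgeR adjusted p-values of these 9 ran up to 0.00470, and that of Lamp1 was 0.0605. This order rests on TMM factors across tissues of unlike composition, and with library totals alone all 10 genes were lower in the pancreas, Ctsl by -1.19 and Cst3 by -1.29 on the log2 scale.

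Other lysosomal genes were read from lists written by function, whose medians and counts are set beside the 16.2% and 13.5% of all genes in the pancreas and the 12.1% and 13% in adipose tissue. Under scaling by library totals alone, the shares over all genes were 45.4% higher and 3.93% lower in the pancreas, with a median of 0.75. In adipose tissue they were 8.62% and 18.2%, with a median of -0.17, and counts at that scaling are to be read against these. With 1 OA-AP pancreas left out the shares were 11.8% to 17.6% higher and 9.88% to 17% lower. With 1 adipose library left out they were 9.68% to 13.2% and 8.13% to 14.4%. Leaving out a control pancreas leaves a single control, so only effect sizes are given for the lists in those fits. Of 46 other lysosomal hydrolases and activators, 1 was upregulated and 16 downregulated in the pancreas, with a median log2 fold change of -0.54, whereas with library totals alone 11 were upregulated and 3 downregulated and the median was 0.18, beside 45.4%, 3.93% and a median of 0.75 over all genes. The lowest p-values among those that fell belonged to Man2b1, a lysosomal mannosidase (25.2 to 11.3 CPM, log2 -1.16), and Ppt1, which removes palmitate from proteins (15.6 to 4.79 CPM, log2 -1.70). The 1 that rose was Lgmn, legumain, an asparaginyl protease that processes cathepsins (3.58 to 21.2 CPM, log2 2.56, SE 0.38). The median of the list was -0.60 without control replicate 1 and -0.51 without control replicate 2. The count that rose was 2 without OA-AP replicate 2 or 3, and Man2b1 lost its call with library totals alone (log2 -0.45). In adipose tissue 2 of the 46 rose, among them Pla2g15 (log2 0.66), and 2 fell (Idua, log2 -0.74, and Hyal1, log2 -0.69), with a median of -0.027. Without control replicate 3 Pla2g15 and Hyal1 lost their calls, as did Pla2g15 without OA-AP replicate 3 and with library totals alone (log2 0.51), where 0 of the 46 rose and 4 fell.

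Of 21 other lysosomal membrane proteins tested in the pancreas, 6 were upregulated and 1, Tpcn1, downregulated (log2 -0.64, or 0.069 with library totals alone), and the median was 0.056. Scaled by library totals alone, 12 rose and 0 fell, with a median of 0.74. Tpcn1 lost its call without OA-AP replicate 1, and 3 and 2 genes fell without OA-AP replicate 2 and 3. The log2 fold change of Tpcn1 was -0.48 without control replicate 1 and -0.77 without control replicate 2. Sidt2, a nucleic acid transporter of the lysosomal membrane (70.3 to 162 CPM, log2 1.20), and Slc17a5, the sialic acid exporter (15.9 to 34.4 CPM, log2 1.11), had the lowest p-values. In adipose tissue 3 of 22 rose and 0 fell (6 were lower at an unadjusted p-value under 0.05 and 0 fell by DESeq2), led by the channel Mcoln2 (from 1.88 to 11.9 CPM, log2 2.68) and the tetraspanin Cd63 (174 to 349 CPM, log2 1.00). There were 2 that rose and 4 that fell with library totals alone. The median with TMM factors was 0.016, 5 rose without OA-AP replicate 2, and 1 fell without control replicate 1 or 2 or OA-AP replicate 1 or 3.

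Of the 4 other cathepsins tested in the pancreas 0 were called (edgeR), 1 was higher at an unadjusted p-value under 0.05 and DESeq2 called 0 (1 rose without OA-AP replicate 3, and 3 with library totals alone), while in adipose tissue 1 of 6 fell, Ctsw, a cathepsin of killer lymphocytes (1.67 to 0.406 CPM, log2 -2.03). Ctsw lost its call without adipose control replicate 1 or 2 or OA-AP replicate 1 or 2, with edgeR adjusted p-values of 0.0506 to 0.0702, and 2 fell without OA-AP replicate 3 and 3 with library totals alone. Among other protease inhibitors Serpinb6a, which blocks serine proteases and cathepsin G, rose in the pancreas (27.5 to 54.3 CPM, log2 0.98) as 1 of 3 tested, or 2 with library totals alone. In adipose tissue 3 of 5 rose, among them Cstb, the cytosolic cystatin B (50.2 to 94.3 CPM, log2 0.91, SE 0.09), and Stfa2l1, a stefin (0.0718 to 2.23 CPM, log2 4.81). The control mean of Stfa2l1 lay below the level of 3 counts in those libraries (0.102 to 0.127 CPM). Stfa2l1 thus passed the filter on low counts through the OA-AP libraries, and the size of its rise is uncertain. Cst3 and Cstb are both cystatins, and Cst3 was not called in adipose tissue.

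Of 13 genes for mannose 6-phosphate tagging and sorting, 0 rose and 4 fell in the pancreas, where 1 was higher at an unadjusted p-value under 0.05, DESeq2 called 0 higher, and library totals alone gave 4 higher (beside 45.4% of all genes) and 0 lower (beside 3.93%). The 4 that fell with TMM factors included Gnptg, a subunit of the tagging enzyme (19.7 to 8.43 CPM, log2 -1.23), and the sorting receptor Sort1 (42.5 to 16.9 CPM, log2 -1.33). The median of the list was -0.24 without control replicate 1 and -0.26 without control replicate 2. In adipose tissue the coat adaptor Gga2 (log2 -0.62) and the mannose 6-phosphate receptor Igf2r (log2 -0.62) fell, the first short of the fold threshold without control replicate 1 and the second without control replicate 3, and 1 gene rose without OA-AP replicate 1. In that tissue 0 rose and 3 fell with library totals alone. Of 18 subunits and partners of the vacuolar proton pump, which acidifies lysosomes, 2 rose and 4 fell in the pancreas, with Atp6v1b2 (log2 0.86) and Atp6v0e (log2 1.15) up and Tcirg1 (log2 -1.02) and Atp6ap2 (log2 -0.60, or 0.10 with library totals alone) down. Without OA-AP replicate 1 there were 2 that fell. The median of the list was -0.20 without control replicate 1 and -0.21 without control replicate 2. By library totals alone, 7 rose and 0 fell, with a median of 0.47 in place of -0.24. In adipose tissue 1 of 19 rose, the pump subunit Atp6v0a1 (135 to 402 CPM, log2 1.58, SE 0.19). There 0 fell by edgeR or DESeq2 and 0 were lower at an unadjusted p-value under 0.05, while 1 fell without OA-AP replicate 2.

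Of 17 regulators of lysosomal genes and of nutrient sensing at the lysosome, 2 rose in the pancreas (Mtor, log2 0.93, and Rraga, log2 0.81) and 5 fell. Without control replicate 1 Mtor was at 0.76 and Rraga at 0.70, and without control replicate 2 they were at 1.12 and 0.93. The counts were 8 that rose and 2 that fell with library totals alone, with a median of 0.81. Flcn, folliculin, which with its partners controls how TFEB is held in the cytoplasm, fell from 43.9 to 8.21 CPM (log2 -2.42, SE 0.22, edgeR adjusted p = 0.000264), and its partner Fnip2 fell from 36.3 to 10.5 CPM (log2 -1.79). Both stayed called with library totals alone, at -1.70 and -1.07. Flcn also fell in adipose tissue, from 65.1 to 37.4 CPM (log2 -0.80), where the 1 gene of 19 that rose was Tfec, a TFEB relative of myeloid cells (0.859 to 7.29 CPM, log2 3.10), and 2 rose without OA-AP replicate 2. The 1 that fell was 3 with library totals alone.

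**Figure D5:**
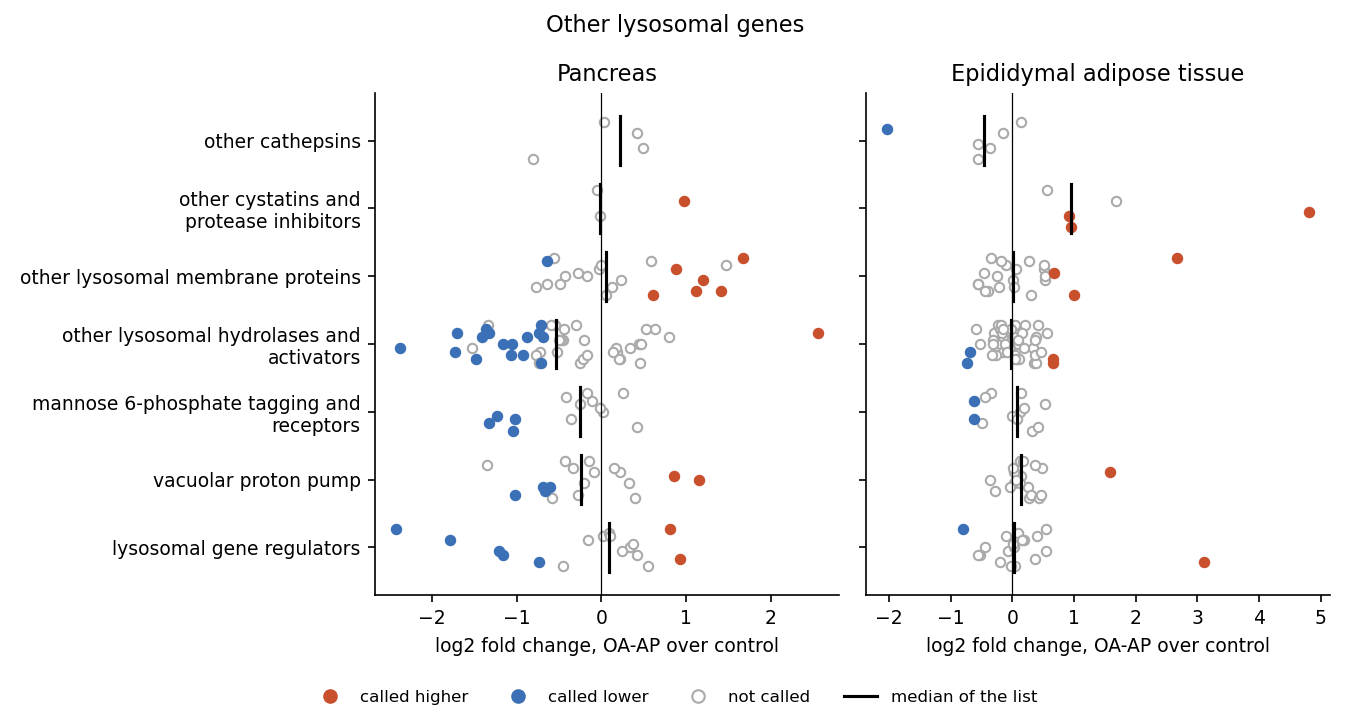
Log2 fold change, OA-AP over control, of every tested gene in 7 lists of other lysosomal genes, in pancreas (left) and adipose tissue (right). Red and blue points are genes called higher and lower, open points genes not called, and black lines list medians. The hydrolases in the pancreas have a median of -0.54 with 16 called lower, and in adipose tissue a median of -0.027.

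Among 11976 genes tested in both tissues, the one with the pattern nearest to each gene was found by the root mean square difference of log2 CPM, centred within each tissue, over the 11 libraries. For 9 of the 10 genes the nearest were Gosr1 to Lamp2 (0.0468), Ttc23 to Lamp1 (0.0567), Ppib to Cst3 (0.0901), Gtf2h1 to Ctsd (0.0912), Arpc2 to Ctsz (0.0923), Adam9 to Ctsl (0.103), Jdp2 to Ctsk (0.134), Rtl8a to Ctsc (0.155) and Mdfic to Ctss (0.185). Ppib, like Cst3, was lower in OA-AP pancreas (log2 -1.27) and near its control level in adipose tissue (log2 0.27). Rtl8a, like Ctsc, was lower in OA-AP pancreas (log2 -1.24) and higher in adipose tissue (log2 1.53). The search ran over these same control and OA-AP libraries, so the shared directions follow from how the genes were picked. They are not separate results.

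Some reads cannot be given to a single gene. Ctsb shares 774 exon bases with Fdft1 on the other strand, whose counts reached 28.5% of those of Ctsb in the pancreas and 5.42% in adipose tissue. Lamp1 shares 249 with Grtp1 (at most 5.02%) and Ctsz 10 with Nelfcd. Ctsl shares 1742 exon bases with the antisense gene Gm47123 and 395 with the pseudogene Gm49230, and Ctsd 808 with Gm49369, all 3 of which were at 0 counts in all 5 pancreas libraries. Gm49369 and Gm49230 lie on the same strand as Ctsd and Ctsl, so reads there are ambiguous whatever the strand setting. For the genes on the other strand it matters, and the setting of the counting is not given in the sources used here. Counts in all these stretches are therefore uncertain.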

How the data were processed

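RNA was sequenced from 5 pancreas and 6 epididymal adipose samples. The authors trimmed and filtered reads with Trim Galore 0.6.6 and fastp 0.20.1, used STAR to align them to GRCm38 and featureCounts 2.0.1 for gene totals, and they deposited whole-number counts without normalization. The annotation release and strand setting are not given in the sources used here, but positions and lengths of the 10 genes equal those of GENCODE M21. Counts on genes ranged from 14188832 to 17238919 in pancreas and from 20825177 to 27928097 in adipose libraries, and the 10 genes took 0.0637% to 0.156% and 0.504% to 0.689% of them. Since no molecular identifiers are described, reads can be copies of 1 molecule and counting precision covers counting error only. No label says that samples are separate animals, and p-values measure the spread between these samples. Replicates differed by more than counting noise (lowest chi-square per degree of freedom 6.91).

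Groups follow the sample labels. Genes passing filterByExpr were tested with edgeR 4.0.16 (robust quasi-likelihood test, TMM factors, Benjamini-Hochberg adjustment over all genes tested) on R 4.3.3, with DESeq2 1.42.0 as an alternative. A call needed an adjusted p-value under 0.05 with a 1.5-fold change, and the tissue by condition term at the adjusted p-value alone. Each standard error was taken from the F statistic, as the absolute log2 change over its root. Log2 CPM in the likeness search used a prior count of 2. Ratios and sums were tested with two-sided exact permutation tests. Tests were tried on simulated data. Besides the 10 genes, the text names at most 2 genes called higher and 2 called lower with the smallest p-value per list and tissue, the nearest gene to each of the 10, and marker genes beside results they move with. The 10 genes and the lists were chosen with earlier results of these data known. Some list members without a row in a table were not analysed here, and 2 genes that the naming rule selects are not reported here. Alternatives were other scalings, filters and fold thresholds, DESeq2, a replicate block and leaving out each library. Same-numbered control and OA-AP samples had r from -0.163 to 0.0562 within tissues, beside -0.250 to 0.293 for samples with different numbers. Between tissues of a group r was -0.0505 to 0.130, beside -0.119 to 0.0820. In OA-AP, replicates 2 and 3 had 0.0893 and 0.130 between tissues, above every pair with different numbers. Deviations of the 2 control pancreata mirror each other, so their values are not independent. The numbers were not taken to pair samples. The tissue by condition test treats all 11 libraries as independent, and whether both tissues came from the same mice is not shown.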

Additional observations from a re-analysis of the deposited data

Results flagged for a closer look

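The change in OA-AP differed between pancreas and adipose tissue for 3 of the 10 genes by the tissue by condition test, which 21.3% of 17046 genes passed. Ctsc differed by -2.49 on the log2 scale, downregulated in the pancreas and upregulated in adipose tissue. Cst3 differed by -1.39 and Lamp1 by -0.57, both downregulated in the pancreas and not called in adipose tissue, but with library totals alone Cst3 missed the threshold (edgeR adjusted p = 0.0694) and Lamp1 turned to 0.27. Acinar marker genes took a smaller share of counts in the OA-AP pancreas and neutrophil markers were higher in OA-AP adipose tissue, and their part in these differences was not tested.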

How the results depend on the processing

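The number of pancreatic genes called, 4, was 2 with a fold change of at least 2 (Ctsl and Cst3), a threshold at which the share over all genes was not computed. With 1 OA-AP pancreas left out, 1 or 2 were upregulated (beside 11.8% to 17.6% of all genes) and 3 downregulated (beside 9.88% to 17%). In adipose tissue the number, 2, was 5 with no fold threshold (adding Ctsb, Ctsd and Ctsz) and 1 with a fold change of at least 2 (Ctsc), again without shares over all genes. With 1 adipose library left out, 2 to 4 were upregulated (beside 9.68% to 13.2% of all genes) and 0 downregulated (beside 8.13% to 14.4%). The log2 difference of the summed CPM was 1.04 in pancreas and 0.34 in adipose tissue with library totals alone, and in pancreas -0.28 per kb of gene length and 0.12 to 0.45 with 1 library left out.

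With library totals alone, 6 pancreatic genes were upregulated, beside 45.4% of all genes tested, and 0 downregulated, beside 3.93%: Ctsl was joined by Ctsb (1.17), Ctsd (0.92), Ctss (0.87), Ctsz (1.19) and Lamp2 (1.24), while Cst3 (-0.40) and Ctsc (-0.28) lost their calls and Lamp1 turned to 0.027. Of all genes called in the pancreas 92.0% were then upregulated, against 54.5% with TMM factors, and in adipose tissue 32.1% against 48.1%. The same setting gave -0.018 for Ctss in adipose tissue, 0.069 and 0.10 for Tpcn1 and Atp6ap2 in the pancreas, -1.29 and -1.19 for Cst3 and Ctsl between control tissues, and 0.50, 0.83 and 0.27 for Ctsd, Ctsz and Lamp1 in the tissue by condition term.

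The other reversals were of genes that were not called. With 1 library left out, values in the pancreas ranged from -0.035 to 0.34 for Ctsd, from -0.12 to 0.29 for Ctsk and from -0.092 to 0.40 for Ctss, those of Ctsk in adipose tissue from -0.48 to 0.088, and tissue by condition terms from -0.31 to 0.24 for Ctsb, from -0.18 to 0.29 for Ctss and from -0.13 to 0.13 for Ctsz. The Ctsz term was also 0.044 with factors computed without acinar genes and 0.016 with at least 10 counts in every library. The cause was not tested.

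With the replicate block, the counts of called genes stayed at 4 in pancreas and 2 in adipose tissue, Ctsk and Ctss in the pancreas were at -0.077 and -0.038, and the Lamp1 tissue difference (-0.54) lost its call, leaving 2. DESeq2 called the Lamp2 tissue difference (0.32), and dropping the filter on low counts called Lamp2 in the pancreas (0.59). The alternatives for the other lysosomal lists, and the second gene length, were chosen after seeing the data. With 2 control pancreata, leaving out either one leaves a single control. Fewer genes were then called among all genes tested as well as in most lists, so counts of list genes from those fits are not given.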
